A study of Mus musculus with 6 samples.

Results

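The histone genes of the mouse were followed in thyroid tumor cells of 2 genotypes, YAP and BrafYAP, by RNA-seq. Members were all genes of the deposited table whose symbol began with Hist1h to Hist4h, H1f, H2af or H3f. There were 86 such genes of 35027 in the table, and 82 of them had a value above 0.0001, the offset that marks 0 in this table, in at least 3 of the 6 libraries. Of these 82 genes, 67 carried the symbols of the replication-dependent families (Hist1 to Hist4) and 15 those of histone variants (H1f, H2af and H3f). By annotation 74 were protein-coding, 7 were pseudogenes and 1, H3f3aos, was an antisense RNA. The 4 genes left out were H1fnt, H1foo, Hist1h3g and Hist2h2ab. Just inside the limit were Hist1h2bf, with 0.327, 0.331 and 0.0885 in the YAP libraries and the offset in all BrafYAP libraries, and Hist3h2bb-ps. Just outside were Hist1h3g, at 0.123 and 0.341 in YAP replicates 2 and 3 alone, and H1foo.

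Both genotypes carried a doxycycline-inducible transgene for YAPS127A, a constitutively nuclear form of the Hippo pathway coactivator YAP. BrafYAP mice also expressed the oncogenic kinase BrafV600E from its endogenous gene. Recombination by a Cre active in thyroid follicular cells directed both to these cells. All mice were given doxycycline chow from 4 weeks of age by the labels, while another passage of the study gives a later start, and the age at collection was not given in them. Cells positive for the reporter protein Kate were sorted from dissociated tumors, and about 20000 cells entered each library. In the labels a YAP library pooled 3 tumors and a BrafYAP library held 1, and pooling and genotype cannot be told apart. The methods of the study describe a single tumor for each replicate, so the sources differ on what a replicate is. The 3 libraries of each group are named by their replicate numbers, 1, 2 and 3 for YAP and 1, 2 and 6 for BrafYAP, and no label gave a batch. P-values measure only the spread between these libraries.

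Histones are the proteins around which DNA is wound, with H2A, H2B, H3 and H4 in the nucleosome core and H1 on the linker DNA. The replication-dependent genes lie in clusters, mostly lack introns, are transcribed in S phase, and give mRNAs that end in a conserved stem-loop bound by SLBP in place of a poly(A) tail. Variant genes lie alone, give polyadenylated mRNAs through the whole cell cycle, and supply chromatin outside replication. Dividing tumor cells and resting cells therefore differ in how much of each kind they make. The libraries here were primed with oligo-dT, which captures RNAs with a poly(A) stretch. Values of replication-dependent genes therefore stand for the part of their RNA that was captured, not for all of it.

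The stem-loop was read from the annotated transcripts (GENCODE M21, on mm10) to see which members hold it and how far their annotated transcripts run past it. It was searched for as a 6-base arm starting with GG, a 4-base loop starting with T, and the reverse complement of the arm. Of 66 protein-coding Hist genes, 52 had enough annotated sequence after the stop codon, and 45 held the structure, 22 to 59 bases after the stop codon. In the 100 bases after the coding end of 19876 other coding genes, 18 (0.091%) held it. The longest annotated transcript of each gene was used. One of the 11 variant genes for which it was coding, H2afx, held the structure too. H2afy is a protein-coding gene, but its longest transcript is not annotated as coding, so it is not among the 11. The following 7 are shown because they are among the members described below and cover the arms GGCTCT and GGCCCT. The arm GGTCCT, found in some H4 genes, is not among them. Capitals mark the stem-loop.
Hist1h1c: aaaaGGCTCTTTTCAGAGCCaccact
Hist1h2ap: aaaaGGCTCTTTTCAGAGCCatc
Hist2h2aa1: aaaaGGCTCTTTTCAGAGCCacccac
Hist1h3e: aaacGGCTCTTTTAAGAGCCacctcc
Hist1h4d: caaaGGCCCTTTTCAGGGCCactacc
Hist1h4i: taaaGGCCCTTTTTAGGGCCaccaca
H2afx: caaaGGCCCTTTTAAGGGCCaccacc

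These stem-loops lay after the stop codon at chr13:23739512-23739527 (plus strand), chr13:21833029-21833044 (minus), chr3:96246032-96246047 (plus), chr13:23561903-23561918 (minus), chr13:23581950-23581965 (plus), chr13:22040966-22040981 (minus) and chr9:44335240-44335255 (plus), in the order printed. All 12 H4 genes with the structure had an arm, GGCCCT or GGTCCT, that differed from the GGCTCT of the 33 genes of the other classes. In 23 of the 45 genes the annotated transcript ran on for more than 100 bases past the stem-loop, by 840 bases in Hist1h1c, 770 in Hist1h4d, 369 in Hist1h3e and 330 in Hist1h4i. In the other 22 it ended sooner, 3 bases past it in Hist1h2ap and 35 in Hist2h2aa1. The mean value over the 6 libraries had a median of 0.713 among the 23 genes with the long annotated end, with a range from 0.0419 to 107. Among the 21 described genes with the short end the median was 0.556, with a range from 0.0202 to 34.7, so a short annotated end did not go with a value near 0 in every case.

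The start regions were compared as well, in the 250 bases upstream of the RefSeq start (GRCm38.p6), which were given for 73 of the 86 members. CCAAT, a site of the factor NF-Y, was found on either strand in 76.7% of members and in 33.8% of all 32851 promoters of the table. All promoters of H1, H2A and H2B genes of the replication-dependent families held it, and 25% of those of H4 genes did. TATAAA was found in 39.7% of members and 12.4% of all promoters. The octamer ATTTGCAT, a site of OCT1, was found in 17.8% of members and 1.6% of all promoters. Within the replication-dependent families it occurred in 35.3% of H2A and 37.5% of H2B promoters and in none of the H1, H3 and H4 ones. Of the variant promoters 8.3% held it, that of H3f3b. The upstream regions of Hist1h2ah (chr13:22035644-22035893, minus strand) and Hist1h1b (chr13:21780626-21780875, minus strand) are shown, as the members with the lowest p-value in either direction. Capitals mark these motifs on either strand, and a match is a description of letters, not of binding.
Hist1h2ah: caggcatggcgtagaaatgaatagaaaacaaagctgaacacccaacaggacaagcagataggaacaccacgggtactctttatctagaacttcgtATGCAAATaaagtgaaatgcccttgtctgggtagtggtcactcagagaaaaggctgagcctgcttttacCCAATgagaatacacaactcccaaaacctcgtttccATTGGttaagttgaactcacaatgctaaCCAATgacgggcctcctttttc
Hist1h1b: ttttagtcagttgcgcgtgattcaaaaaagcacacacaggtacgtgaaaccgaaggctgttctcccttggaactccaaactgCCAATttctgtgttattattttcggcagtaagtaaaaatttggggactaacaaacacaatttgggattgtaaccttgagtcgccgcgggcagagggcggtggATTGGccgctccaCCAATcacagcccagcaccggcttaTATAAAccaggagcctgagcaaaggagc

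The depth was similar across libraries, 26.2 to 36.9 M estimated reads, and 21880 to 22997 genes were above the offset. Values are of the TPM type, divided by the genomic span of each gene, so levels can be compared between intronless genes but are understated for genes with introns. Of the described members 70 were without introns. Between groups, log2(value + 1) was compared by limma for the 34 members with a mean of at least 1, together with all 7319 such genes of the table. The other 48 described members had a lower mean.

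No histone gene passed the threshold after adjustment over all genes tested (limma, Benjamini-Hochberg adjusted p under 0.05), where 18 of 7319 genes (0.246%) did. At an unadjusted limma p under 0.05, 9 of 34 members were higher in BrafYAP (26.5%), beside 10.7% of all genes tested, and 3 were lower (8.8%), beside 9.17%. The median log2 difference of the 34 members was 0.62, and that of all genes -0.06. The groups did not overlap for 13 members, 8 higher and 5 lower in BrafYAP, where 11.8% of all genes were higher and 16.4% lower without overlap. A gene enters this comparison through its mean, so the counts cover the members that were high enough in some libraries. Among the 9, Hist1h3e, Hist1h3i and H2afv had a mean under 1 in YAP (0.411, 0.447 and 0.885). They entered through BrafYAP (2.08, 1.77 and 2.32), so for them the filter favored the direction counted. Among the 3 lower, H3f3a-ps1 entered through YAP (3.03 in YAP and 0.971 in BrafYAP). Over all 82 described members the unadjusted counts were 13 higher (15.9%, beside 6.99% of 22903 genes) and 5 lower (6.1%, beside 9.93%), and the median was 0.16.

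The members spread widely within the YAP group. YAP replicate 1 was the lowest of the 6 libraries for 24 of the 34 members (70.6%), and for 19 of the 23 replication-dependent ones (82.6%), beside 33.5% of all genes tested. The order of the YAP libraries, replicate 1 below 3 below 2, was also shared by 24 members (70.6%), beside 31.5% of all genes. The 9 members higher at an unadjusted p numbered 16 without YAP replicate 2 (47.1%, beside 17.2% of all genes). They numbered 5 without YAP replicate 3 (14.7%, beside 7.44%) and 5 without BrafYAP replicate 2 (15.2%, beside 7.79%). Without YAP replicate 1, 6 of 35 members were higher (17.1%, beside 7.39%) and 3 lower (8.57%, beside 7.03%) at an unadjusted limma p under 0.05, 0 passed adjustment, and the median was 0.22. YAP replicate 2 had the opposite weight. Without it 8 members passed adjustment, as did 465 genes in all (6.39%), and these 8 were Hist1h2ah, Hist1h2al, Hist2h2aa1, Hist2h2aa2, Hist1h3i, H1f0 and H2afj, higher in BrafYAP, and Hist1h1b, lower.

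**Figure D1:**
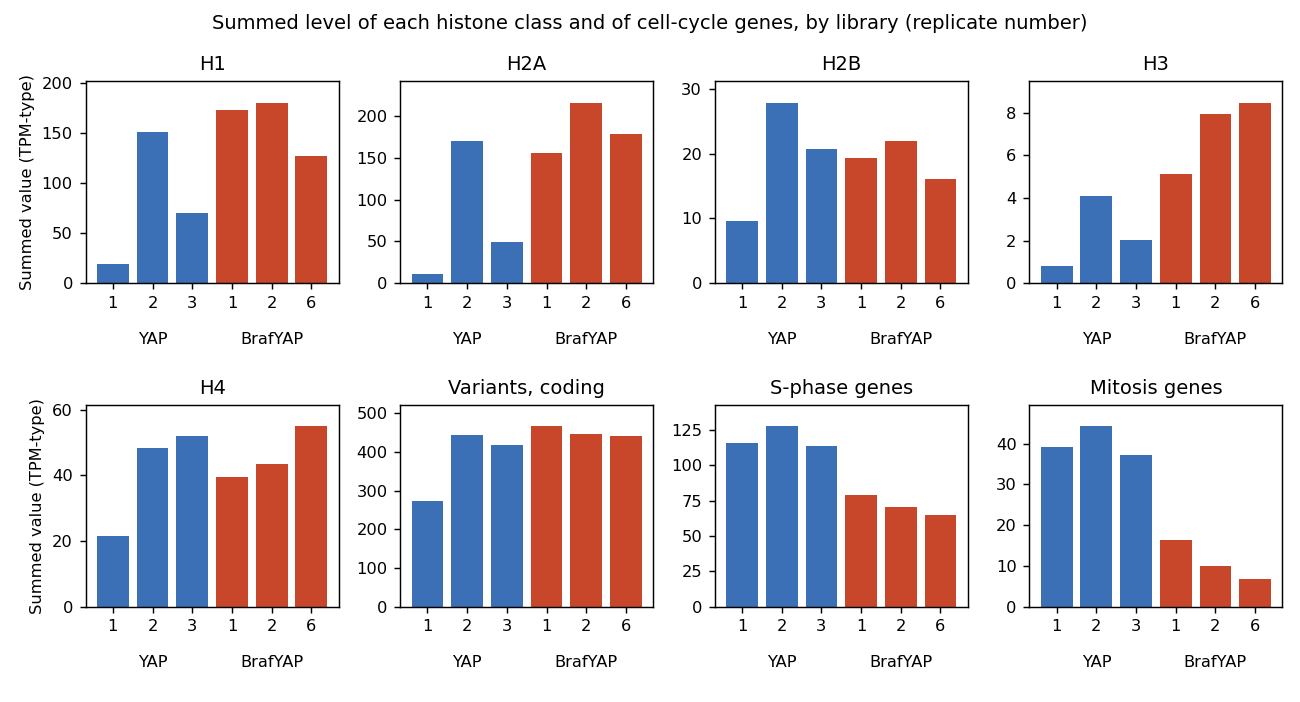
Summed deposited value (TPM-type, linear axes from 0) of the replication-dependent genes of each class, the coding variants, and lists of S-phase and mitosis genes, in each library (bars, blue YAP and red BrafYAP, labelled by replicate number). YAP replicate 1 is the lowest library in the first 6 panels, whereas the S-phase and mitosis sums of all 3 YAP libraries lie above all 3 BrafYAP libraries.

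The sum over a class depends less on how reads were divided between near-identical genes. Summed over the 67 replication-dependent genes, the value was 62.4, 401 and 195 in YAP replicates 1, 2 and 3 and 393, 470.4 and 386 in BrafYAP replicates 1, 2 and 6. The groups, with means of 219.5 ± 171 and 417 ± 46.7 (SD, n = 3), overlapped through YAP replicate 2. The 10 coding variant genes summed to 274, 444 and 419 in YAP and 466, 446 and 442 in BrafYAP, so YAP replicate 1 again stood apart. Of the 5 classes, the H1 sum overlapped between groups, with 80.0 ± 66.5 in YAP and 160.4 ± 28.8 in BrafYAP (SD, n = 3). The H2A sum did too, with 77.2 ± 82.9 and 184 ± 30.5. H2B and H4 sums lay close together, at 19.4 ± 9.20 against 19.1 ± 2.97 and 40.6 ± 16.6 against 46.0 ± 7.95. Only the H3 sum, the smallest of the 5, did not overlap, with 0.788, 4.09 and 2.04 in YAP and 5.14, 7.93 and 8.47 in BrafYAP.

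Cell-cycle genes were listed beside the histones because replication-dependent histone mRNA is made in S phase. Of 21 S-phase genes tested, 11 were lower (52.4%, beside 9.17% of all genes) and 0 higher in BrafYAP at an unadjusted limma p under 0.05, with a median log2 difference of -0.58. Of 9 mitosis genes tested, 8 were lower (88.9%) and 0 higher, with a median of -1.16. None passed adjustment (lowest limma adjusted p = 0.0631 and 0.0511). The sum over the 44 S-phase genes ranged from 113 to 127 in YAP and from 64.8 to 79.2 in BrafYAP libraries, and that of the 18 mitosis genes from 37.3 to 44.2 and from 6.81 to 16.4. In YAP replicate 1, the S-phase sum was 115, within the range of the other YAP libraries, while the histone sum was the lowest of all. The kinase gene Tk1, which makes thymidine phosphate for DNA synthesis, was at 6.05, 4.22 and 7.09 in YAP and 1.75, 1.39 and 1.32 in BrafYAP, a log2 difference of -1.43 (limma adjusted p = 0.0631). The helicase gene Mcm3 and the replication-coupled chromatin factor Uhrf1 had log2 differences of -1.33 and -1.14.

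One linker histone gene had the direction of these cell-cycle genes. Hist1h1b, which encodes H1.5, was at 7.85, 4.81 and 11.7 in YAP and 2.73, 2.45 and 1.90 in BrafYAP. All YAP libraries were above all BrafYAP libraries, whereas 25 of the 34 members tested had a positive difference, beside 3270 of all 7319 genes. The means were 8.12 ± 3.46 and 2.36 ± 0.423 (SD, n = 3), a log2 difference of -1.38 (SE 0.32, limma adjusted p = 0.0953). With 1 library left out it lay between -1.66 and -1.10, and adjusted p-values over the alternatives ranged from 0.00862 to 0.351. The gene shared none of its 50-base stretches, the length of a read, with another annotated transcript. Hist1h1a, the H1.1 gene, was at 0.783, 0.110 and 1.01 in YAP and 0.0497, 0.0353 and 0.119 in BrafYAP, which rested on 1 to 22 estimated reads per library and was not tested.

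Hist1h1c and Hist1h1e, the other replication-dependent linker histone genes tested, had positive differences. Hist1h1c, the gene of H1.2, had the highest mean value among them. It stood at 9.42, 135 and 52.0 in YAP and at 163, 173 and 111 in BrafYAP, so that YAP replicate 2 lay among the BrafYAP libraries. The log2 difference was 1.80 (SE 0.86, limma adjusted p = 0.294), and 0.79 without YAP replicate 1. Hist1h1e, the gene of H1.4, overlapped between groups, at 0.575 to 10.5 in YAP and 5.06 to 14.1 in BrafYAP, with a log2 difference of 0.94 (SE 0.73, limma adjusted p = 0.492), and 0.14 without YAP replicate 1. Hist1h1d, the gene of H1.3, had a mean below 1 and a log2 difference of 0.61 on the scale of reads (limma adjusted p = 0.603).

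Among H2A genes all 10 tested members had a positive log2 difference, beside 3270 of all 7319 genes, with a median of 1.22. At an unadjusted limma p under 0.05, 4 were higher (40%, beside 10.7% of all genes). Many of the 10 share 50-base stretches with other H2A genes, so they are not 10 separate observations. Hist1h2ah (chromosome 13, 22035164 to 22035568, minus strand), one of the H2A genes of the Hist1 family, had the lowest p-value of any member. It was at 0.00644, 2.90 and 0.333 in YAP and at 13.3, 17.9 and 23.0 in BrafYAP, far apart and without overlap. Behind these values were 0 to 29 estimated reads in each YAP library and 147 to 315 in each BrafYAP library. The log2 difference was 3.42 (SE 0.51, limma adjusted p = 0.0511). It lay between 3.03 and 4.01 as each library was left out, and the adjusted p ranged from 0.00339 to 0.237 over the alternatives. However, 92.1% of the 50-base stretches of this gene occurred in other transcripts as well, most of them in Hist1h2ad (87.4%), so the division of reads among near-identical H2A genes bears on its value. Hist1h2ah, H2afj and H2afx also overlap short predicted RNA genes on the other strand, and H1f0 overlaps an antisense gene, Gm49544, whose value was at most 0.0823.

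The sum over the 12 coding H2A genes of the Hist1 family on chromosome 13, which depends less on that division, was 3.19, 84.9 and 21.6 in YAP and 54.3, 80.6 and 90.5 in BrafYAP. Here YAP replicate 2 lay among the BrafYAP libraries, unlike for Hist1h2ah alone. Hist1h2ap, the largest of these genes, showed it directly. Its values were 2.66, 66.6 and 14.8 in YAP and 31.2, 41.7 and 51.6 in BrafYAP, a log2 difference of 1.40 (SE 0.95, limma adjusted p = 0.444). It shared 93.1% of its stretches, all of which occurred in Hist1h2ao. Hist1h2ai was at 0.000300, 0.00638 and 0.00287 in YAP and 0.511, 2.11 and 1.13 in BrafYAP, with 5 to 32 estimated reads in BrafYAP, and was not tested.

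Hist1h2al, annotated as a processed pseudogene and lying apart from the cluster (chromosome 13, 51202727 to 51203065), had the second largest difference among replication-dependent genes. It was at the offset, 3.13 and 1.22 in YAP and at 14.2, 21.4 and 14.4 in BrafYAP. The log2 difference was 3.05 (SE 0.51, limma adjusted p = 0.0631), and 67.6% of its stretches were shared. In Gm20632, which overlaps Hist2h2aa2 on chromosome 3, 65.5% of its stretches occurred. Reads of Hist1h2al and of that locus can therefore be mistaken for each other, and its difference is not separate from theirs. Hist2h2aa1 and Hist2h2aa2 on chromosome 3 are near-identical and shared 100% of their stretches, with each other or with the overlapping genes Gm20633 and Gm20632. Their values therefore depend on how reads were divided among these genes. The sum over Hist2h2aa1 and Hist2h2aa2 was 1.55, 57.3 and 12.2 in YAP and 70.4, 96.6 and 60.6 in BrafYAP. All BrafYAP libraries were above all YAP libraries, with YAP replicate 2 close to BrafYAP replicate 6. Taken one by one, their log2 differences were 2.51 and 2.37 (limma adjusted p = 0.248 and 0.187). They were 1.35 and 1.44 without YAP replicate 1.

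Hist3h2a on chromosome 11, which belongs to a small separate cluster, contrasted with these genes. It was at 6.65, 22.4 and 13.9 in YAP and 14.6, 14.5 and 10.6 in BrafYAP, a log2 difference of 0.02 (SE 0.42, limma adjusted p = 0.982).

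**Figure D2:**
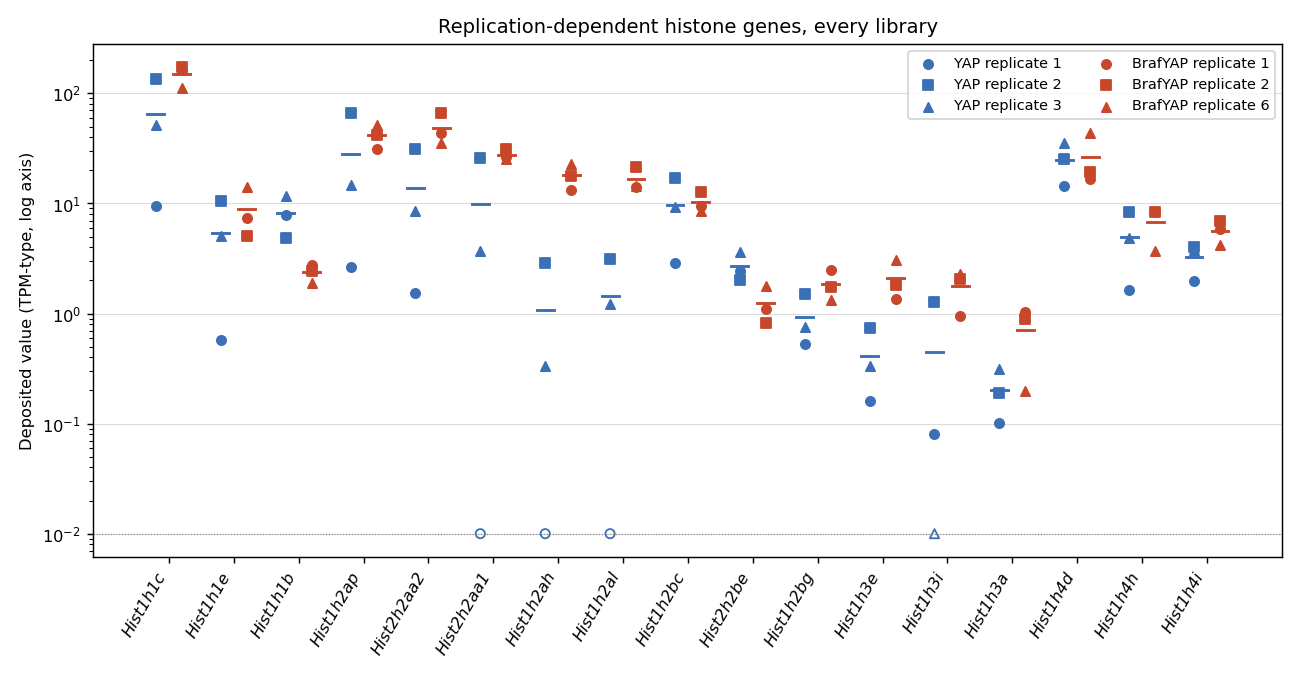
Deposited value (TPM-type, log axis) of 17 replication-dependent genes in each library (symbols by replicate), with group means as bars, ordered by class from H1 to H4. Values below 0.01 are drawn as open symbols on the dotted line at 0.01. Hist1h1b and Hist2h2be lie higher in YAP, Hist1h2ah and Hist1h2al higher in BrafYAP, and for most other genes YAP replicate 1 is the lowest point and YAP replicate 2 lies near the BrafYAP libraries.

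H2B genes had no common direction. Hist1h2bc was by far the most abundant, at 2.85, 17.0 and 9.28 in YAP and 9.39, 12.7 and 8.49 in BrafYAP. The groups overlapped, with a log2 difference of 0.31 (SE 0.54, limma adjusted p = 0.776) that was -0.30 without YAP replicate 1. Its annotated transcript is spliced and lacks the stem-loop. Hist2h2be, on chromosome 3 and also without the structure in its annotated transcript, was lower in BrafYAP. Its values were 2.42, 2.01 and 3.61 in YAP and 1.09, 0.825 and 1.79 in BrafYAP, without overlap, a log2 difference of -0.72 (SE 0.26, limma adjusted p = 0.183). None of its stretches were shared. Hist1h2bg had a log2 difference of 0.58 (limma adjusted p = 0.269), and the values of the groups overlapped.

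Many H2A and H2B genes share a start region, as 13 pairs of members lay head to head within 400 bases. The partners were not captured alike. Values understate genes with introns, such as Hist1h2bc, so scaled reads, not divided by length, are given too. Hist1h2ah lay 301 bases from Hist1h2bk, with mean values over the 6 libraries of 9.56 and 0.0526 (116.7 and 0.8 scaled reads). Hist1h2ap lay 235 bases from Hist1h2br, with 34.7 and 0.518 (504.7 and 59.1). In Hist1h2ac and Hist1h2bc, 250 bases apart, the order was the reverse, with 0.609 and 9.96 (45.6 and 2612.8). Shared stretches made up 92.1% of Hist1h2ah, 74.2% of Hist1h2bk, 93.1% of Hist1h2ap and 88.5% of Hist1h2br. The levels of these genes therefore depend on how reads were divided. The H2A partner had the higher mean in 8 of the 13 pairs, by value and by scaled reads.

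H3 genes were the least abundant class of the core histones. Hist1h3e was at 0.160, 0.736 and 0.335 in YAP and at 1.35, 1.81 and 3.09 in BrafYAP, without overlap. The log2 difference was 1.11 (SE 0.27, limma adjusted p = 0.0998) and lay between 0.98 and 1.29 in the 5 fits with 1 library left out that gave a value. Without BrafYAP replicate 6, where it was highest, the gene was not tested, as its mean fell below 1. There were 4 to 15 estimated reads per YAP library and 31 to 88 per BrafYAP library, and 73.4% of its stretches were shared. Hist1h3i, at 0.0798, 1.26 and 0.000164 in YAP and 0.952, 2.05 and 2.30 in BrafYAP, overlapped through YAP replicate 2, with a log2 difference of 1.00 (SE 0.37, limma adjusted p = 0.194). Hist1h3a, next by level, was at 0.101, 0.189 and 0.311 in YAP and 1.02, 0.897 and 0.197 in BrafYAP and was too low to test.

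None of the 4 H4 genes tested had an unadjusted limma p under 0.05. Hist1h4d carried most of the class, at 14.4, 25.3 and 35.5 in YAP and 16.6, 19.4 and 44.0 in BrafYAP. The log2 difference was 0.04 (SE 0.47, limma adjusted p = 0.970), and it shared 10.2% of its stretches. Hist1h4h had a log2 difference of 0.50 (limma adjusted p = 0.610), and 0.0045 without YAP replicate 1. Hist1h4i was the exception in overlap, with 1.96, 3.98 and 3.80 in YAP and 5.92, 6.86 and 4.16 in BrafYAP. Its log2 difference was 0.66 (SE 0.30, limma adjusted p = 0.267).

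Of the 48 members below the mean of 1, 14 had at least 10 reads on average after the length division was undone and were compared on log2(scaled reads + 1). None of the 14 had an unadjusted limma p under 0.05, where 9.68% of 16832 genes were higher and 10.5% lower. Their log2 differences ran from -0.96 in Hist2h4 to 2.51 in Hist1h3f. Hist2h4 was at 0.609, 0.824 and 1.64 in YAP and 0.385, 0.576 and 0.471 in BrafYAP, and Hist1h3f was higher in every BrafYAP than in every YAP library. The remaining 34 members had at most 9.60 scaled reads on average and were not tested.

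Among variant genes, which do not depend on replication, H3f3b, H3f3c and H2afz had the highest deposited values, which understate genes with introns. In reads not divided by length, H3f3a had a mean of 13461 and the intronless H3f3c of 1234. H3f3a and H3f3b both encode the replacement histone H3.3. H3f3b was at 151, 215 and 204 in YAP and 217, 186 and 135 in BrafYAP. The groups overlapped, and the log2 difference was -0.09 (SE 0.30, limma adjusted p = 0.885). H3f3a was at 38.1, 34.7 and 41.7 in YAP and 29.4, 31.2 and 29.4 in BrafYAP. All YAP libraries were above all BrafYAP libraries, by a small step of -0.33 on the log2 scale (SE 0.23, limma adjusted p = 0.444). YAP replicate 1 was not the lowest library for either H3.3 gene.

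H3f3c, H3f3a-ps1 and H3f3a-ps2, annotated as pseudogenes, resemble H3f3a closely and shared 73.8%, 54.3% and 82.0% of their stretches. Reads of these genes and of H3f3a can therefore be mistaken for each other. H3f3a-ps1 had the lowest p-value of the 3, at 2.74, 4.35 and 1.99 in YAP and 0.840, 1.00 and 1.07 in BrafYAP, a log2 difference of -0.99 (SE 0.25, limma adjusted p = 0.106). H3f3c and H3f3a-ps2 had -0.32 and -0.46. Summed over H3f3a and these 3, the value was 182 ± 5.94 in YAP and 142 ± 24.6 in BrafYAP (SD, n = 3). This sum still depends on how reads were divided, since a read weighs more in a gene of short span. In YAP, H3f3c had a mean value of 110.2 from 1365 scaled reads, and H3f3a 38.1 from 15070.

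H2afj (chromosome 6, 136808244 to 136810074), which encodes H2A.J, an H2A variant found in secretory epithelia and in senescent cells, had the largest difference among the variants. It was at 0.839, 11.9 and 4.51 in YAP and at 25.3, 46.1 and 63.3 in BrafYAP, where every library was more than the highest YAP value. The means were 5.76 ± 5.65 and 44.9 ± 19.0 (SD, n = 3), a log2 difference of 3.08 (SE 0.71, limma adjusted p = 0.0946). It stayed between 2.35 and 3.76 as each library was left out, with adjusted p-values from 0.00901 to 0.266 over the alternatives. Only 7.2% of its stretches were shared, and the values rested on 45 to 538 estimated reads in YAP and 1262 to 3931 in BrafYAP libraries. H1f0 (chromosome 15, 79028450 to 79030504), the linker histone H1.0 of resting and differentiated cells, had the same direction. Its values were 5.61, 53.8 and 23.0 in YAP and 106, 108 and 100.4 in BrafYAP. The BrafYAP libraries were close together and all above YAP, and the log2 difference was 2.36 (SE 0.71, limma adjusted p = 0.140). Leaving out YAP replicate 1 gave 1.54.

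The other H2A variants differed less. H2afz, the gene of H2A.Z.1, a variant of promoters and enhancers, was at 77.1, 116 and 140.1 in YAP and 76.5, 59.7 and 99.8 in BrafYAP, a log2 difference of -0.48 (SE 0.33, limma adjusted p = 0.454). Of its stretches 69.6% were shared, with 60.8% occurring in Tmcc1, so its value depends on how reads were divided. H2afv, the gene of the sister protein H2A.Z.2, had the opposite sign, at 0.254, 1.68 and 0.723 in YAP and 1.44, 1.99 and 3.52 in BrafYAP (log2 difference 0.84, limma adjusted p = 0.246). H2afx, whose protein is phosphorylated at DNA breaks, was at 0.764, 9.91 and 3.98 in YAP and 8.95, 11.5 and 9.77 in BrafYAP. Its log2 difference was 1.27 (SE 0.61, limma adjusted p = 0.297) and 0.58 without YAP replicate 1. H2afy, the gene of macroH2A1, a variant of silent chromatin, was at 0.460, 0.985 and 0.794 in YAP and 1.35, 1.46 and 1.03 in BrafYAP, without overlap (log2 difference 0.39, limma adjusted p = 0.300).

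**Figure D3:**
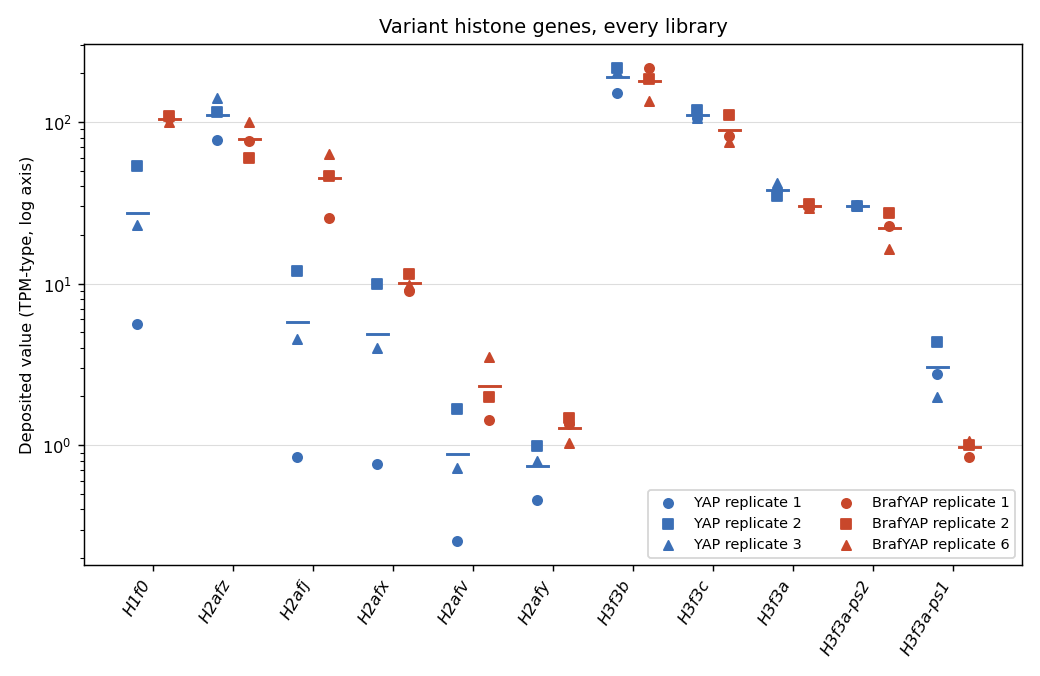
Deposited value (TPM-type, log axis) of the 11 variant genes with a mean of at least 1 in each library (symbols by replicate, blue YAP and red BrafYAP), with group means as bars. H1f0 and H2afj lie higher in every BrafYAP than in every YAP library, while for H3f3b and H3f3c the groups overlap.

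The machinery of histone supply was described by lists of genes that act on histones. Of 14 tested genes for histone mRNA transcription and processing, 1 was higher (7.1%, beside 10.7% of all genes) and 0 lower in BrafYAP at an unadjusted limma p under 0.05, with a median log2 difference of -0.26. The one was Sympk, a scaffold of the 3' processing complex, with 0.55 (limma adjusted p = 0.241). Of 17 tested chaperones and exchange factors, 4 were lower (23.5%, beside 9.17% of all genes) and 0 higher, with a median of -0.29. Asf1b, the H3-H4 chaperone of replicating cells, was at 3.41, 2.94 and 2.50 in YAP and 0.934, 0.823 and 0.580 in BrafYAP, a log2 difference of -1.15 (limma adjusted p = 0.0631). Hjurp, which deposits the centromeric H3, and Daxx, a chaperone of H3.3, had -0.98 and -0.71 (limma adjusted p = 0.142 and 0.157). These chaperones thus went with the S-phase genes in sign, as Hist1h1b did.

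Some histone transcripts are rich in G and C, and the level of GC-rich transcripts as a whole differed between libraries. The median GC content was 53.9% for the members tested and 51.4% for all genes tested. What part of the histone values this carries was not tested beyond the settings given here. Of the 34 members 10 (29.4%) had a GC content of 60% or more, beside 3.93% of all genes tested. In the 288 genes of 60% or more, the median deviation from a gene's own mean was -1.03 in YAP replicate 1, 0.17 and -0.30 in YAP replicates 2 and 3, and 0.34, 0.44 and 0.42 in the BrafYAP libraries, on the log2 scale. The median log2 difference of these 288 genes was 0.81, while in the 4 classes under 55% it lay between -0.16 and -0.05. All 10 GC-rich members had a positive difference, with a median of 1.34, beside 15 of the 24 others, with a median of 0.20. Without YAP replicate 1 these medians were 0.71 and -0.27.

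Values were also centred within bins of GC content in each library, an alternative chosen after seeing the data. The median of the 34 members then was 0.43, and 10 members were higher (29.4%, beside 11.8% of all genes) and 2 lower (5.88%, beside 8.79%) at an unadjusted limma p under 0.05. Hist1h2ah and Hist1h2al passed adjustment there, as did 20 genes in all (0.273%), with log2 differences of 2.72 and 2.35. With centring and without YAP replicate 1 the median was 0.01 and 0 members passed. Single genes responded differently. Hist1h2ap, at 64.5% GC, had 1.40 at first and -0.03 with both changes, whereas H2afj, at 54.6%, had 3.08 and 2.39, Hist1h3e had 1.11 and 1.10, and Hist1h1b had -1.38 and -1.29. Hist1h2ah, at 67.9%, had 2.65 with both changes.

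**Figure D4:**
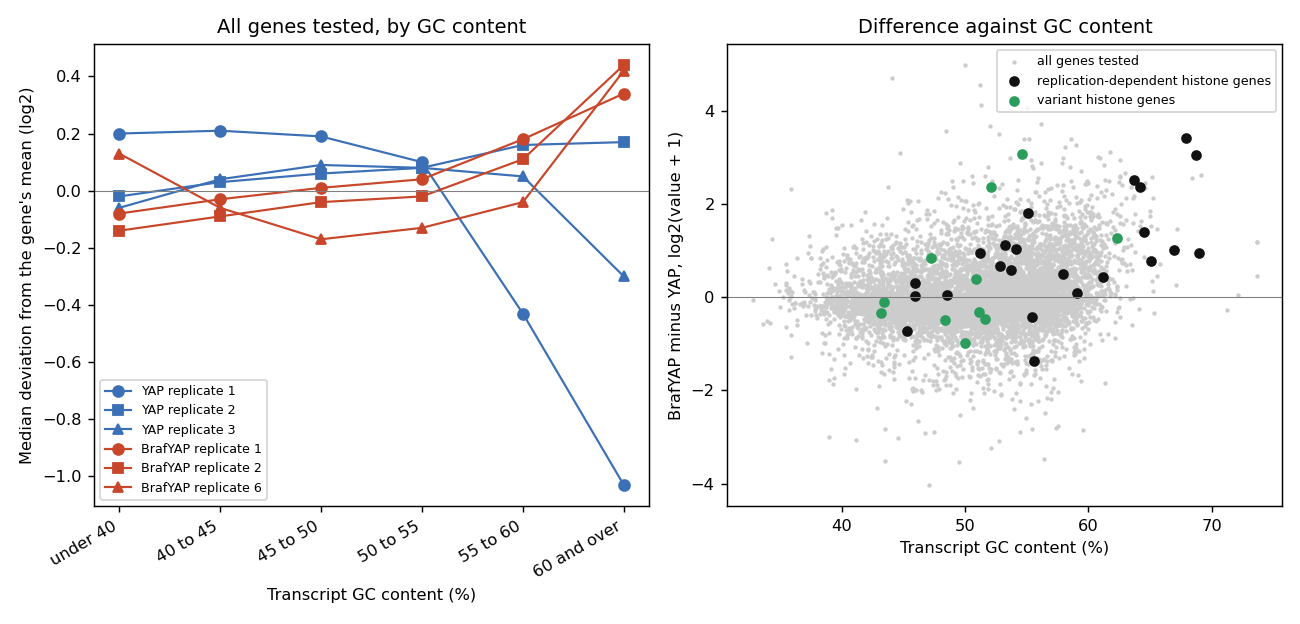
Left, median deviation of all genes tested from each gene's mean over 6 libraries (log2), in classes of transcript GC content, by library. Right, log2 difference (BrafYAP minus YAP) against transcript GC content for all genes tested (grey), replication-dependent (black) and variant (green) histone genes. YAP replicate 1 drops to -1.03 in the class of 60% and over, where all 10 histone genes have a positive difference.

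**Figure D5:**
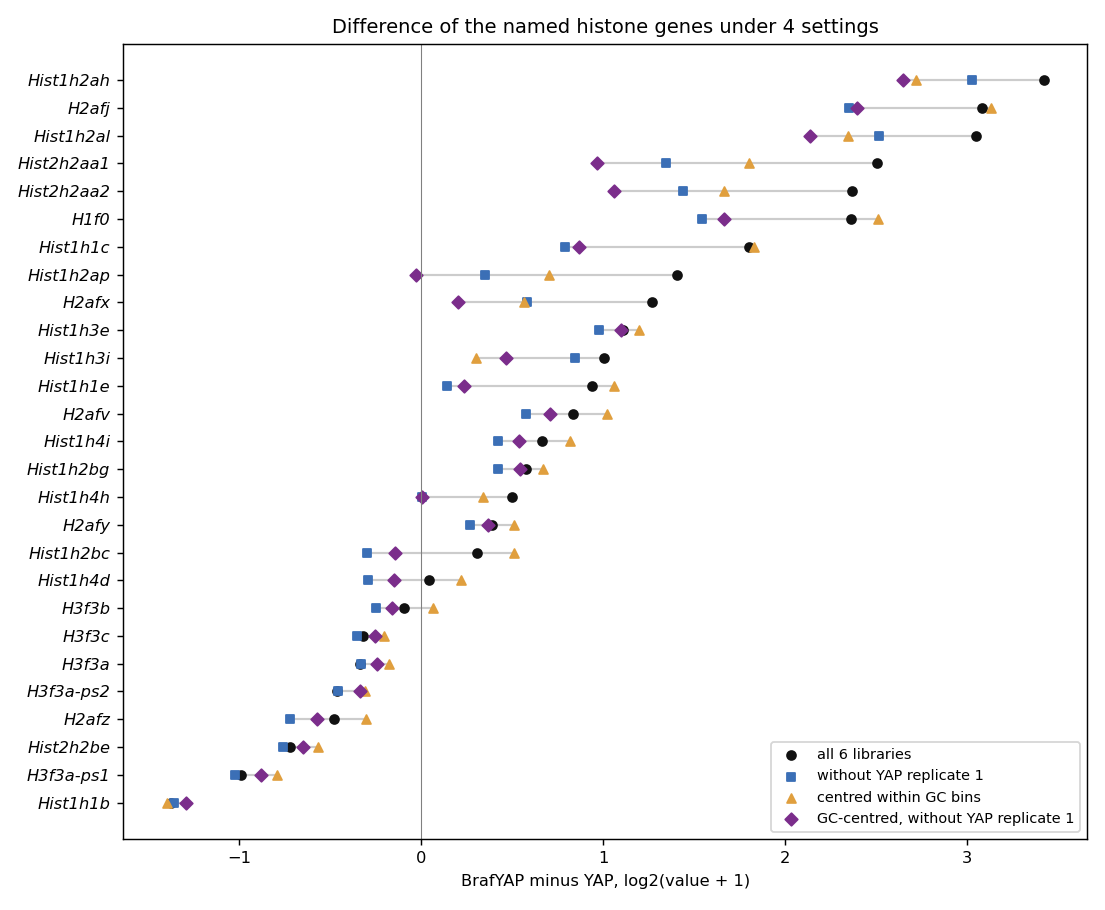
Log2 difference (BrafYAP minus YAP, on log2(value + 1)) of the named histone genes with all 6 libraries, without YAP replicate 1, after centring within GC bins, and with both, with lines joining the values of a gene. H2afj, Hist1h2ah, Hist1h2al, Hist1h3e and Hist1h1b keep their sign and most of their size, and Hist1h2ap and Hist1h4h come to lie near 0.

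Other measures moved with the groups too, and their part in the histone values was not tested. The summed level of 19 immune markers was 1392 to 4862 in YAP and 387 to 1402 in BrafYAP libraries, led by the macrophage gene Lyz2, and 5 of 7 tested were lower in BrafYAP (71.4%, beside 9.17% of all genes) at an unadjusted limma p under 0.05. The 15 thyroid and epithelial markers summed to 604 to 1899 and 871 to 2004, mostly from the keratin genes Krt8 and Krt18, with all 15 above the offset in some library and 10 in all. The thyroid factor gene Pax8 was at 3.13 to 8.84 in every library, whereas Tg, the thyroglobulin gene, was at 0.00965 to 3.62. Endothelial markers summed to at most 4.99 and erythroid markers to at most 27.3. Fibroblast markers summed to 39.9 to 77.4 in YAP and 14.8 to 38.7 in BrafYAP, mostly from Acta2, the smooth muscle actin gene, with means of 38.2 and 6.77. Of 5 fibroblast markers tested, 2 were lower (40%) and 1, Dcn, the gene of the matrix protein decorin, was higher (20%) at an unadjusted limma p under 0.05. No list had a marker at the offset throughout. The 12 genes of the response to dissociation stress summed to 1348, 2468 and 1775 in YAP and 3856, 4715 and 4080 in BrafYAP, and 7 of 12 were higher in BrafYAP (58.3%, beside 10.7% of all genes) at an unadjusted limma p under 0.05. The heat-shock gene Hspa1a, intronless like the histone genes, was at 10.6, 270 and 45.3 in YAP and 306, 537 and 791 in BrafYAP, the same order of the YAP libraries as in Hist1h1c. In these sorted populations, a smaller share of cells that make a histone mRNA and less of it per cell cannot be told apart.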

How the data were processed

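RNA was amplified with an oligo-dT-primed SMART-Seq kit and sequenced in 50-base paired reads. Per the submitters' notes, bcl2fastq 2.2, STAR 2.6.1d and Partek were used with mm10. The authors deposited TPM with 0.0001 added. Strand was not given in the sources used here. The columns sum to 181217.6, and low values are whole multiples (within 0.05) of 1 read for 71.7 to 76.0% of genes after multiplication by the genomic span (22.3 to 24.9% by the exonic length). Estimated and scaled reads were computed from these steps. All samples in the table were used (0 columns were left over). TPM are not counts, so the 7319 genes whose mean reached 1 were compared between groups on log2(value + 1) by limma 3.58.1 in R 4.3.3 (lmFit, eBayes with trend, two-sided), with Benjamini-Hochberg adjustment over all of them and a threshold of 0.05. Log2 differences understate the change of low genes. Genes with lower means were compared on log2(scaled reads + 1) with a mean of at least 10. The fit was tested on simulated data. Shared stretches are 50-base windows of the longest GENCODE M21 transcript found in another gene's transcripts. GC content was centred in 20 bins. Members and lists were chosen with earlier results of these data known. Named genes were every tested variant, the 3 highest of each replication-dependent class, the 5 largest differences in each direction at an unadjusted p under 0.05, and at most 3 per direction from each other list. Genes named beyond that rule (Hist1h1a, Hist1h1d, Hist1h2ai, Hist3h2a, Hist2h4, Hist1h3f and partners of divergent pairs) were chosen after their values were seen. Alternatives were another pseudocount, other filters, quantile or median-ratio scaling, array weights, scaled reads, a replicate block and each library left out.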

Additional observations from a re-analysis of the deposited data

How the results depend on the processing

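Every log2 difference of the 27 named and tested genes kept its sign under every alternative that gave a value except those of 4 genes whose differences were near 0 or rested on YAP replicate 1. H3f3b had 0.00088 under median-ratio scaling, 0.063 after GC centring and -0.25 to 0.10 with 1 library left out. Hist1h4d had -0.0058 under quantile normalization, -0.68 under array weights, -0.15 with GC centring without YAP replicate 1, and -0.37 to 0.33 with 1 library left out. Hist1h2bc had -0.14 with GC centring without YAP replicate 1, and -0.30 to 0.81 with 1 library left out. Hist1h2ap had -0.027 with GC centring without YAP replicate 1. H2afy, Hist1h3e and Hist1h3i had no value in some fits with 1 library left out, where their means fell below 1.

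The number of genes of the table past the threshold, 18, depended on the setting. It was 1 with a pseudocount of 0.1 or median-ratio scaling, 3 with a minimum mean of 10, and 79 under quantile normalization. It was 1393 under array weights, which gave YAP replicate 1 a weight of 0.35 and BrafYAP replicate 6 a weight of 0.30. It was 0 without the minimum mean, with the length division undone, and with GC centring without YAP replicate 1, and 0 to 465 with 1 library left out. Histone genes past the threshold numbered 2 of 34 under quantile normalization, beside 79 of 7319 genes. With GC centring they also numbered 2 of 34, beside 20 of 7319 genes, Hist1h2ah and Hist1h2al both times. Under array weights 15 of 34 passed, beside 1393 of 7319 genes. With 1 library left out 0 to 8 passed, the 8 without YAP replicate 2, beside 465 of 7276 genes. Those higher at an unadjusted limma p under 0.05 numbered 3 with the minimum mean of 10 (23.1%, beside 7% of all genes). They numbered 15 under array weights (44.1%, beside 19.1%). With 1 library left out they numbered 5 to 16, where 7.4 to 17.2% of all genes were higher. Those lower numbered 0 with the minimum mean of 10 (beside 7.4% of all genes) and 6 under array weights (17.6%, beside 15.5%). Without the minimum mean 5 were lower (6.1%, beside 9.93%). The median log2 difference of the members was 0.62 with all libraries and lay between 0.01 (GC centring without YAP replicate 1) and 1.15 (a pseudocount of 0.1). The cause was not tested.

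The replicate numbers 1 and 2 occur in both groups. Deviations from the group means of libraries that share a number had r = -0.05 and 0.06 across genes. With 3 libraries a group, this cannot tell whether they share more than a number, and no label says so. With the replicate block, 0 genes passed the threshold, and the differences of H3f3b and Hist1h4d were 0.15 and -0.086. At an unadjusted limma p under 0.05, 10 members were higher (29.4%, beside 7.7% of all genes) and 3 lower (8.82%, beside 5.8%). Array weights were estimated gene by gene, since the default estimate did not converge. Depth limits the 34 members under 10 scaled reads, and the limit of 3 libraries a group applies to all.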
